A study of Homo sapiens with 6 samples.

Results

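The genes described here encode the glycosyltransferases and sulfotransferases that build cell-surface glycans. They were chosen by symbol alone, as every row of the authors' deposited table in the sialyltransferase (ST3GAL, ST6GAL, ST6GALNAC, ST8SIA), galactosyl and N-acetylgalactosaminyl transferase (B3GALT, B4GALT, B4GALNT), B3GNT, GALNT, FUT, MGAT, CHST, HS2ST, HS3ST, HS6ST, NDST and EXT families, together with UGCG. The choice found 70 of the 12558 gene rows. The study used IGR37, an established human melanoma cell line, carrying a piggyBac transposon from which doxycycline switches on CTNNB1 (beta-catenin) with an N-terminal nuclear localisation signal of SV40 large T antigen. Integrated cells had been selected with 1 mg/ml G418, so both groups carry the same transposon and went through the same selection. One group of 3 libraries had no doxycycline and the other group of 3 libraries had 20 ng/ml doxycycline for 24 h. Libraries were made from 500 ng of total RNA with the QuantSeq Forward kit, which reads the 3′ end of each transcript. The labels name no clone and do not say whether the 3 libraries of a group came from separate cultures, so the p-values measure only the spread between these libraries, which may be technical.

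Glycans grow by single sugars that enzymes of the endoplasmic reticulum and Golgi transfer from nucleotide sugar donors. Sialyltransferases close a chain, and the way they link sialic acid decides which lectins can bind it. GALNT enzymes start mucin-type chains on serine and threonine, MGAT enzymes branch N-glycans, and EXT, NDST, HS and CHST enzymes polymerise and sulfate the glycosaminoglycan chains of proteoglycans. In melanoma the route is best known for the gangliosides GM3, GD3 and GD2, which are sialylated glycolipids of the plasma membrane.

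The deposited values are the authors' own edgeR comparison for this line, with a log2 fold change, an average level in CPM (reads scaled to the size of each library), an F statistic, a p-value and an FDR (p adjusted over all 12617 rows) for each gene. No value per library was given in the file used here, so each result below is a difference with an error and not a set of replicate values, and the depth of each library is unknown. Errors written after ± are approximate standard errors, taken as the log2 fold change divided by the square root of F. The header names neither the groups compared nor which of them lies on the positive side, and no value in the table settles either. Whether the comparison is between the 2 groups described above is therefore not known. Hence "higher" and "lower" below mean positive and negative log2 fold changes, with no statement on which treatment they belong to, and they would trade places if the ratio were turned. In the authors' deposited table CTNNB1 itself had a log2 fold change of 1.96 ± 0.13 (3.89-fold higher, average 757 CPM, edgeR FDR 1.24e-08), but whether 3′ reads of the introduced copy count under CTNNB1 is not given in the sources used here. MITF, the transcription factor that directs the melanocyte lineage, was 18.6-fold higher. The kit reads the end of each transcript, so a CPM is not expected to grow with transcript length, and levels of different genes are ranked on that footing only. All folds, levels and FDRs below are those of the authors' deposited table unless a spike-in scale, an implied level or an interval is named. In bulk RNA, fewer cells of a type and less RNA per cell cannot be told apart.

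Other features of the whole table bear on every result below. The 59 ERCC spike-in rows, synthetic RNAs added to each sample, had a median log2 fold change of 0.57, whereas the median of all genes was −0.01, so that centring on the spike-ins lowers every log2 value by 0.57. All 8 melanocyte markers were higher (median log2 fold change 6.30, summed average level 3890 CPM). Of the 7 fibroblast markers 5 were in the table, 4 of them lower and LUM higher (median −5.95, summed 194 CPM), with DCN and PDGFRB not among the rows. Of 5 epithelial markers 3 were listed, with CDH1 higher and KRT18 and KRT8 lower (summed 183 CPM), and EPCAM and KRT5 not among the rows. The blood marker CD68 was higher, and the endothelial markers PECAM1 and CDH5 were lower, with summed levels of 8.71 CPM and 5.78 CPM. PTPRC, CD3E and VWF were not among the rows, and CD68 did not pass on the spike-in scale (log2 0.39). With the 4 denominator degrees of freedom that 6 libraries in 2 groups leave, CD68, PECAM1 and CDH5 were not called. KRT8, which had no reads in 1 group, was tested with 2 fewer than that and was not called either. The part of these marker shifts in the results on glycan enzymes was not tested. Among gene rows, 206 had no reads in 1 group, judged by the lost denominator degrees of freedom of their test, and for these no fold is given. A further 131 rows lay on the lowest step of levels above those, at an estimated 1 read in the lower group. By these steps a read was worth 2.43 times as many CPM in one group as in the other. Ratios that rest on an estimated 1 to 4 reads are given with the 95% interval that such a count allows.

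Glycan enzyme genes changed in both directions, with more on the negative side of the comparison than on the positive. At an FDR under 0.05, 49 of the 70 (70.0%) passed the test, beside 50.9% of all genes. Of these, 20 were higher (28.6%, beside 24.5% of all genes) and 29 were lower (41.4%, beside 26.4%), while 21 did not pass. The same shares of all genes, 24.5% and 26.4%, apply to the counts of each role and list below. Among the 66 with reads in both groups, 14 were at least 2-fold higher (21.2%, beside 12.9% of all genes) and 17 were at least 2-fold lower (25.8%, beside 14.8%). The median absolute log2 fold change of the 70 genes was 1.09, beside 0.58 over all genes. The median signed value was −0.31 with quartiles of −1.12 and 0.82, and that of all genes was −0.01 with quartiles of −0.61 and 0.55. Centred on the spike-ins, 14 genes were higher and 40 lower, so that the share of higher genes among those called went from 40.8% to 25.9%, and over all genes from 48.1% to 17.8%. On that scale 52.3% of all genes were called lower and 11.3% higher.

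**Figure D1:**
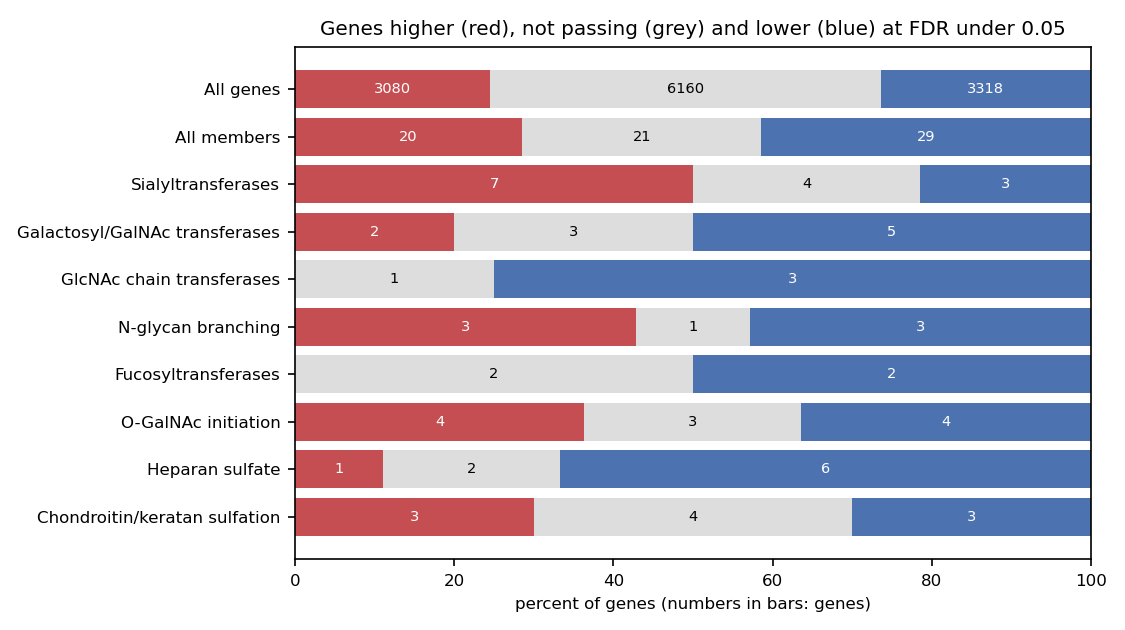
Share of genes in each role that were higher (red), lower (blue) or did not pass (grey) at an edgeR FDR under 0.05, in percent, with the number of genes written in each bar and all genes for comparison; UGCG, alone in its role, has no bar. Sialyltransferases held the largest number of higher genes (7 of 14), and heparan sulfate enzymes the largest number of lower ones (6 of 9); centred on the spike-ins these became 6 of 14 and 8 of 9, beside 11.3% higher and 52.3% lower over all genes.

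**Figure D2:**
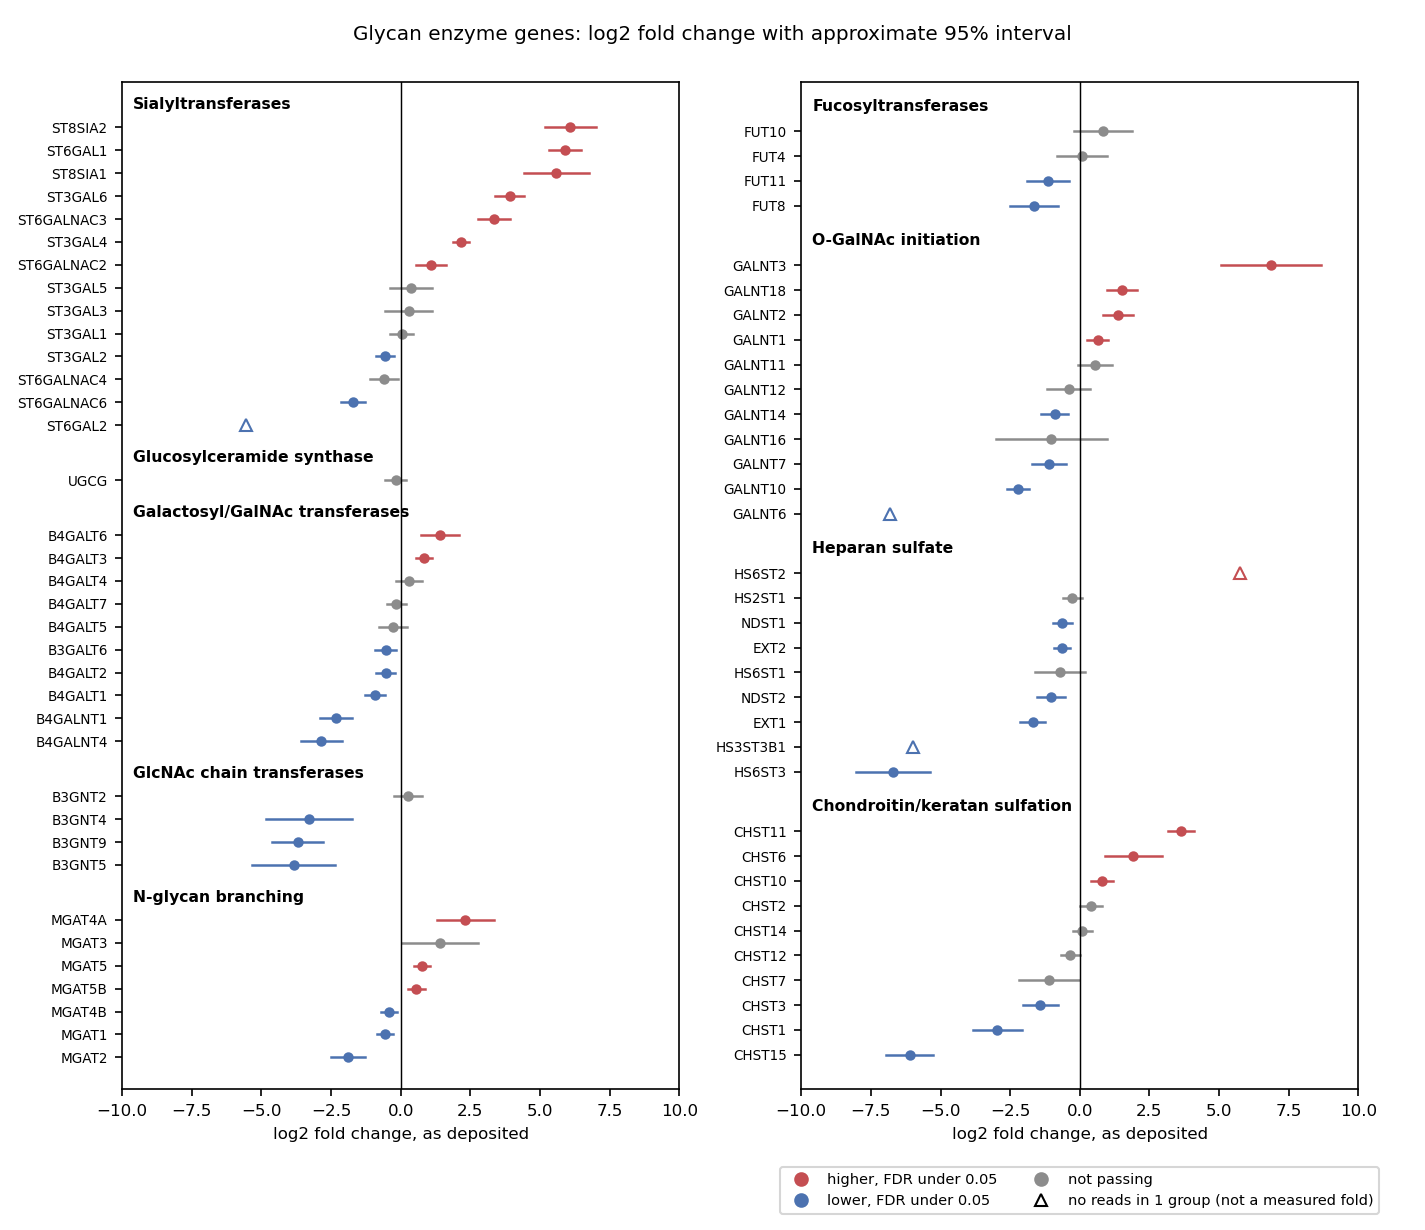
Log2 fold change as deposited of each of the 70 genes (circles) with its approximate 95% interval (bars), by role. Red is higher, blue lower and grey not passing at an edgeR FDR under 0.05, and open triangles are the 4 genes with no reads in 1 group, whose position is not a measured fold. Values run from −6.70 for HS6ST3 to 6.86 for GALNT3 among genes with reads in both groups.

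Of the 14 sialyltransferases, 7 were higher, all at least 2-fold, 3 were lower and 4 did not pass. In the authors' deposited table the median of the 14 was 0.72, with the enzymes that add the last sialic acid to N-glycans, to gangliosides and to polysialic acid at the top. ST6GAL1, which caps N-glycan antennae with alpha2,6-linked sialic acid, lies on chromosome 3 (hg38, 186930325 to 187078553, plus strand). It had a log2 fold change of 5.90 ± 0.27 (59.5-fold higher, 95% interval 5.32 to 6.47, average 31.7 CPM, edgeR FDR 3.89e-10). Its implied level, split from the average by the fold, was 1.05 CPM in one group and 62.2 CPM in the other. Its only close relative, ST6GAL2, moved the other way: it had no reads in 1 group, was lower at an average of 1.30 CPM (FDR 0.00273), and no fold could be measured. Both names stand for the same linkage, and the pair carried opposite signs.

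ST8SIA2, which with ST8SIA4 makes polysialic acid on the neural cell adhesion molecule, was 67.8-fold higher (log2 6.08 ± 0.43, 95% interval 5.17 to 7.0, average 8.15 CPM, edgeR FDR 3.12e-08). Its implied level was 0.237 CPM, an estimated 4 reads, in the lower group and 16.1 CPM in the other, which gives the ratio a counting interval of 26.5 to 249. The known carriers of polysialic acid did not move as one. In the authors' deposited table NCAM1, the main carrier, had a log2 fold change of −0.02 at 68.5 CPM (FDR 0.934), while NRP2, a semaphorin and VEGF co-receptor, was 18.4-fold higher (log2 4.2 ± 0.18, FDR 2.35e-10) and CADM1 1.51-fold higher (FDR 0.0218). Centred on the spike-ins, NCAM1 was lower (log2 −0.59) and CADM1 no longer passed (FDR 0.93).

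Among the alpha2,3-sialyltransferases 3 of 6 passed the test. ST3GAL6 and ST3GAL4, which sialylate type 2 lactosamine ends and contribute to sialyl Lewis X, were 15.0-fold (log2 3.91 ± 0.25, FDR 1.05e-08) and 4.46-fold higher (log2 2.16 ± 0.14, 95% interval 1.86 to 2.45, FDR 1.12e-08) in the authors' deposited table. ST3GAL4 was the sialyltransferase with the highest average level, 104 CPM, and its implied levels were 38 and 170 CPM. ST3GAL6 shares 196 exon bases with DCBLD2 on the opposite strand, which was lower (log2 −2.53), and 107 with its antisense RNA ST3GAL6-AS1, which was higher (log2 2.04); whether counting used strand is not given in the sources used here. ST3GAL2, which acts on mucin-type core 1 and on gangliosides, was 1.49-fold lower (FDR 0.00634). ST3GAL1, the main core 1 enzyme, had a log2 fold change of 0.03 (95% interval −0.38 to 0.44, 45.3 CPM, FDR 0.909), and ST3GAL3 one of 0.29 (interval −0.56 to 1.14). Centred on the spike-ins, ST3GAL1 became −0.54 and was called lower.

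The ST6GALNAC enzymes add alpha2,6-linked sialic acid to GalNAc in mucin-type chains or gangliosides, and they split. ST6GALNAC3 was 10.1-fold higher (log2 3.34 ± 0.27, average 27.9 CPM, edgeR FDR 1.34e-07). ST6GALNAC2 was 2.11-fold higher (log2 1.08 ± 0.25, FDR 0.0026), a call lost on the spike-in scale (log2 0.51, FDR 0.0927). ST6GALNAC6 was 3.28-fold lower (log2 −1.71 ± 0.20, average 39.6 CPM, FDR 7.47e-06), and ST6GALNAC4 missed the threshold at a log2 fold change of −0.59 (FDR 0.0501), passing on the spike-in scale.

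Along the ganglioside route the enzymes at either end of GD3 moved in opposite directions. UGCG, which makes glucosylceramide, the base of the series, had a log2 fold change of −0.19 (95% interval −0.56 to 0.18, average 110 CPM, FDR 0.387). Lactosylceramide is made by B4GALT5, which had a value of −0.28 (interval −0.79 to 0.23, 121 CPM), and by B4GALT6, which was 2.65-fold higher at 5.38 CPM (log2 1.41 ± 0.32, FDR 0.0021). ST3GAL5, the GM3 synthase, had a log2 fold change of 0.35 (interval −0.40 to 1.11, 11.9 CPM, FDR 0.426). The step from GM3 to GD3 belongs to ST8SIA1, on chromosome 12 (hg38, 22063773 to 22437041, minus strand). In the authors' deposited table it was 48.0-fold higher (log2 5.58 ± 0.54, average 4.59 CPM, edgeR FDR 9.85e-07), and an estimated 3 reads in the lower group give that ratio a counting interval of 16.4 to 233. B4GALNT1, also on chromosome 12 (hg38, 57623409 to 57633239, minus strand), turns GM3 into GM2 and GD3 into GD2. It was 5.04-fold lower (log2 −2.33 ± 0.26, interval −2.90 to −1.77, average 16.5 CPM, FDR 4.62e-06), with implied levels of 27.5 and 5.45 CPM. Centring on the spike-ins left the signs of ST8SIA1, B4GALT6 and B4GALNT1 as they were, and UGCG and B4GALT5 then passed as lower. Glycolipids themselves were not measured.

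Outside the route to GD3, B3GNT5 and A4GALT were lower. B3GNT5, which begins the lacto-series on lactosylceramide, was 14.4-fold lower at 3.63 CPM (log2 −3.85 ± 0.69, edgeR FDR 0.000333), with an estimated 3 reads in the lower group and a counting interval of 4.93 to 69.8 for the ratio. A4GALT, which makes the globo-series trisaccharide Gb3 and was described with other glycolipid enzymes, had no reads in 1 group and was lower at 2.55 CPM (FDR 0.000214). UGT8, which makes galactosylceramide, had a value of 0.56 that did not pass (FDR 0.465). Of the lysosomal enzymes that break glycolipids down, HEXA (2.83-fold) and GLA (1.28-fold) were higher in the authors' deposited table. Of the 8 other glycolipid genes described here 2 were higher, 1 was lower and 5 did not pass, among them the globoside enzyme B3GALNT1 (−0.79, FDR 0.108), with a median of 0.29. On the spike-in scale GLA no longer passed and had a log2 value of −0.21, and B3GALNT1 passed as lower.

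The 4 enzymes that add GlcNAc to growing chains held no higher gene and 3 lower ones, beside 24.5% and 26.4% of all genes. Their median log2 fold change was −3.49. Besides B3GNT5, B3GNT9 was 13.0-fold lower (log2 −3.70 ± 0.43, average 8.28 CPM, FDR 5.84e-06). B3GNT4 was 9.77-fold lower at 2.01 CPM (log2 −3.29 ± 0.72, FDR 0.00152), with an estimated 2 reads in the lower group and a counting interval of 2.70 to 80.7, and its exons overlap those of DIABLO on the opposite strand. B3GNT2, the main poly-lactosamine enzyme and the most abundant of the 4 at 15.6 CPM, had a log2 fold change of 0.25 (interval −0.25 to 0.75, FDR 0.396).

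Of the 10 enzymes that add galactose or GalNAc to chains, 5 were lower, 2 were higher and 3 did not pass. The shares over all genes were 26.4% lower and 24.5% higher. B4GALT1, the widely used enzyme for the galactose of N-glycan antennae, had the highest average level of the role at 398 CPM and was 1.91-fold lower (log2 −0.93 ± 0.16, edgeR FDR 0.00029), with implied levels of 522 and 274 CPM. B4GALT2, of the same activity, was 1.46-fold lower (FDR 0.0132), and B3GALT6, which makes the glycosaminoglycan linker, 1.45-fold lower (FDR 0.0178). B4GALNT4, which makes GalNAc-capped antennae in place of galactose, had the most negative value of the role at 7.21-fold lower (log2 −2.85 ± 0.35, average 12.1 CPM, FDR 9.24e-06). B4GALT3 was 1.80-fold higher (log2 0.85 ± 0.13, FDR 0.000103), a call that is lost on the spike-in scale, and its exons overlap PPOX on the opposite strand. B4GALT4 and the linker enzyme B4GALT7, at 98.6 CPM, did not pass, with values of 0.29 and −0.16. Centred on the spike-ins, B4GALT7 passed as lower (log2 −0.73).

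The branching enzymes of N-glycans differed by up to 5.0-fold. Of the 7 MGAT genes 3 were higher and 3 lower, beside 24.5% and 26.4% of all genes. MGAT3, which adds the bisecting GlcNAc, had a value of 1.41 that did not pass (FDR 0.0798). MGAT1, which opens the complex-type pathway, was 1.49-fold lower (log2 −0.57 ± 0.13, 98.5 CPM, FDR 0.00218), and MGAT2, which acts next, was 3.72-fold lower (log2 −1.90 ± 0.29, 11.0 CPM, FDR 7.26e-05). Both enzymes of the shared early steps were lower, and the later branches differed among themselves. MGAT5, which adds the beta1,6 branch often raised in cancers, was 1.70-fold higher (log2 0.77 ± 0.14, 75 CPM, FDR 0.000288), and its relative MGAT5B 1.47-fold higher (FDR 0.00511). MGAT4A was 5.0-fold higher at 2.18 CPM (log2 2.32 ± 0.48, FDR 0.00106), while MGAT4B, which makes the same branch and was the most abundant at 257 CPM, was 1.35-fold lower (FDR 0.0154). MGAT4B shares exon bases with SQSTM1 on the opposite strand. On the spike-in scale MGAT5 lost its call and MGAT5B had a log2 value of −0.01. Among the trimming enzymes of N-glycans 6 of 8 did not pass, MAN2A2 was 3.93-fold higher and MAN1B1 was lower by 1.66-fold. MAN2A1 (−0.27) and MAN1A1 (−0.47) did not pass, and MAN2A1 passed as lower on the spike-in scale (log2 −0.84). The median of the 8 was −0.18.

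The 4 fucosyltransferases averaged between 2.27 and 5.32 CPM. None was higher and 2 were lower, beside 24.5% and 26.4% of all genes. FUT8, which adds core fucose to N-glycans, was 3.09-fold lower (log2 −1.63 ± 0.40, 4.42 CPM, edgeR FDR 0.00372), and FUT11 was 2.19-fold lower (log2 −1.13 ± 0.35, 5.32 CPM, FDR 0.0147). FUT4, which makes the Lewis X fucose linkage, had a value of 0.08 (interval −0.81 to 0.98), and FUT10 one of 0.83 (interval −0.22 to 1.88). Of the 5 genes that make or carry GDP-fucose, GMDS (2.20-fold), FUK (2.11-fold) and TSTA3 (1.64-fold) were higher and the Golgi transporter SLC35C1 was lower by 2.23-fold. FUK and TSTA3 did not pass on the spike-in scale.

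Of the 11 GALNT genes 4 were higher (36.4%, beside 24.5% of all genes), 4 were lower (36.4%, beside 26.4%) and 3 did not pass. GALNT3, on chromosome 2 (hg38, 165747588 to 165794659, minus strand), had the highest positive value of all 70 genes at 6.86 ± 0.83 (116-fold, average 4.74 CPM, edgeR FDR 9.1e-06). The lower group held an estimated 1 read, which gives the ratio a counting interval of 20.8 to 4586. GALNT6, the closest relative of GALNT3, had no reads in 1 group and was lower at 2.47 CPM (FDR 0.000258). It shares 220 exon bases with SLC4A8 on the opposite strand, which was itself lower (log2 −5.27). GALNT18 was 2.87-fold higher (log2 1.52 ± 0.25, 17.0 CPM), GALNT2, the most abundant of the role at 118 CPM, 2.58-fold higher (log2 1.37 ± 0.25), and GALNT1 1.56-fold higher, the last losing its call on the spike-in scale. GALNT10 was 4.69-fold lower (log2 −2.23 ± 0.18, 56.9 CPM, FDR 1.76e-07), with implied levels of 93.9 and 20.0 CPM, and it shares 121 exon bases with MFAP3 on the same strand. GALNT7, which works on peptides already carrying GalNAc, was 2.15-fold lower, and GALNT14 1.86-fold lower. GALNT11, GALNT12 and GALNT16 did not pass, with values of 0.54, −0.40 and −1.03, and GALNT12 passed as lower on the spike-in scale (log2 −0.97).

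The core enzymes that act after the GALNT step also split. In the authors' deposited table the core 2 enzyme of mucin-secreting tissues, GCNT3, was 75.5-fold higher (log2 6.24 ± 0.36, 17.8 CPM, edgeR FDR 4.12e-09). GCNT1, the core 2 enzyme of leukocytes, was 39.3-fold lower at 3.74 CPM (FDR 0.000136), with an estimated 1 read in the lower group and a counting interval of 7.04 to 1550. C1GALT1, which makes core 1, was 2.02-fold lower and its chaperone C1GALT1C1 1.89-fold lower. GCNT2, which branches poly-lactosamine into the I antigen, was 3.03-fold higher. In all, 2 of these 5 genes were higher and 3 were lower, with a median of −0.92.

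Of the 9 heparan sulfate enzymes, HS6ST2 was the single higher gene, 6 were lower (beside 24.5% higher and 26.4% lower over all genes), and HS2ST1 and HS6ST1 did not pass; the median was −0.71. With 4 denominator degrees of freedom, all that 6 libraries in 2 groups leave, 4 of the 9 were lower and 0 higher. There HS6ST2 and HS3ST3B1, which had no reads in 1 group, were tested with 2 fewer and lost their calls. EXT1, which forms the chain polymerase with EXT2, was 3.24-fold lower (log2 −1.70 ± 0.21, 38.7 CPM, FDR 1.33e-05), with implied levels of 59.2 and 18.3 CPM. EXT2 was 1.54-fold lower (log2 −0.62 ± 0.13, 67.9 CPM, FDR 0.00129). NDST1, which removes acetyl groups and adds the first sulfates, had the highest average level of all 70 genes at 455 CPM and was 1.54-fold lower (log2 −0.62 ± 0.15, FDR 0.00385), and NDST2 was 2.05-fold lower (log2 −1.04 ± 0.23, FDR 0.00175).

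The 6-O-sulfotransferases gave the widest spread within the heparan sulfate group. HS6ST3, on chromosome 13 (hg38, 96090107 to 96839562, plus strand), had the most negative measured value of all 70 genes at −6.70 ± 0.62 (104-fold lower, 8.71 CPM, edgeR FDR 5.67e-07). An estimated 1 read in the lower group gives that ratio a counting interval of 18.6 to 4093. HS6ST2 had no reads in 1 group and was higher at 1.02 CPM (FDR 0.00103), and HS6ST1 had a value of −0.71 (interval −1.61 to 0.20). HS3ST3B1, which adds the rare 3-O-sulfate, had no reads in 1 group and was lower at 1.59 CPM (FDR 0.00161). Its close relative HS3ST3A1 was not among the rows, and how reads matching both genes were counted is not given in the sources used here. HS2ST1 had a value of −0.27 (interval −0.60 to 0.07). On the spike-in scale HS2ST1 and HS6ST1 also passed as lower, making 8 of 9, on a scale where 52.3% of all genes were called lower.

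Of the proteoglycan core proteins that carry heparan sulfate, 5 of 10 were lower, 4 were higher and 1 did not pass. Of the transmembrane syndecans, SDC1 (17.8-fold), SDC2 (16.1-fold) and SDC4 (11.7-fold) were lower in the authors' deposited table, with FDRs of 2.82e-10, 1.18e-07 and 3.29e-10. SDC3 went the other way, at 2.35-fold higher (FDR 4.5e-05), and stayed called on the spike-in scale (log2 0.66). The basement membrane proteoglycan HSPG2 was 6.18-fold higher (log2 2.63 ± 0.21, FDR 1.34e-07). SULF2, a secreted enzyme that removes 6-O-sulfates, was 7.98-fold lower (log2 −3.00 ± 0.43, 18.4 CPM, FDR 4.44e-05), EXTL3 was 1.82-fold higher, and EXTL1 was 74.1-fold higher with an estimated 1 read in the lower group (counting interval 13.3 to 2926). EXTL3 did not pass on the spike-in scale, and EXTL2 had a value of 0.30 that did not pass as deposited. The median was −0.43 for the core proteins and 0.30 for the 5 genes of chain extension and trimming, beside −0.01 over all genes.

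Sulfotransferases of chondroitin, dermatan and keratan sulfate showed large changes in both directions. Of the 10, 3 were higher and 3 lower (30.0% each, beside 24.5% and 26.4% of all genes), and 4 did not pass. CHST11, a chondroitin 4-O-sulfotransferase on chromosome 12 (hg38, 104455295 to 104762014, plus strand), was 12.3-fold higher (log2 3.62 ± 0.22, 95% interval 3.15 to 4.09, 20.7 CPM, edgeR FDR 6.52e-09), with implied levels of 3.11 and 38.3 CPM. CHST15, which adds a 6-O-sulfate to chondroitin units that already carry a 4-O-sulfate, lies on chromosome 10 (hg38, 124007668 to 124093598, minus strand). It was 69.2-fold lower (log2 −6.11 ± 0.39, interval −6.95 to −5.27, 22.2 CPM, FDR 1.22e-08), with implied levels of 43.7 CPM and 0.632 CPM, the latter an estimated 4 reads, which gives the ratio a counting interval of 27.0 to 254. CHST3, a chondroitin 6-O-sulfotransferase, was 2.68-fold lower (log2 −1.42 ± 0.29, FDR 0.00105). CHST11, a 4-O enzyme, was higher, and CHST3 and CHST15, which add 6-O-sulfates, were lower, both as deposited and on the spike-in scale.

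CHST12, the other chondroitin 4-O-sulfotransferase, did not follow CHST11, with a value of −0.34 (interval −0.69 to 0.01, FDR 0.095). It passed as lower on the spike-in scale (log2 −0.91). CHST14, which makes the 4-O-sulfate of dermatan and had the highest level of the role at 58.6 CPM, had a value of 0.10 (interval −0.25 to 0.45) and became −0.47 and lower on the spike-in scale. Of the keratan sulfate enzymes, CHST1 was 7.75-fold lower (log2 −2.95 ± 0.40, 7.08 CPM, FDR 2.87e-05) and CHST6 3.77-fold higher at 3.01 CPM (log2 1.92 ± 0.48, FDR 0.00385). CHST10, which makes the sulfated HNK-1 epitope of neural cells, was 1.73-fold higher (FDR 0.00255) and lost its call on the spike-in scale, and B3GAT1, which supplies the glucuronic acid of HNK-1, was 3.18-fold higher (log2 1.67 ± 0.17, FDR 1.65e-06). CHST2 and CHST7 did not pass, with values of 0.41 and −1.10, and CHST7 passed as lower on the spike-in scale (log2 −1.67).

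Of the 9 genes for chondroitin and dermatan chains 3 were higher, 3 were lower and 3 did not pass. Both epimerases that turn chondroitin into dermatan were lower in the authors' deposited table: DSEL by 9.24-fold (log2 −3.21 ± 0.24, FDR 6.9e-08) and DSE by 24.8-fold, the latter with an estimated 3 reads in the lower group and a counting interval of 8.5 to 120. UST, which adds a 2-O-sulfate, was 6.14-fold higher, and CHSY3, a chain polymerase, had no reads in 1 group and was higher at 1.22 CPM. Of the 7 core proteins that carry chondroitin sulfate 3 were higher and 4 were lower. BCAN, the brain proteoglycan brevican, was 68.6-fold higher (log2 6.10 ± 0.28, FDR 4.59e-10) and CSPG4, the melanoma-associated chondroitin sulfate proteoglycan, 2.63-fold higher at 201 CPM. CD44, at 552 CPM, was 3.72-fold lower and SRGN, the intracellular serglycin, 10.4-fold lower. PTPRZ1 was 31.4-fold higher and VCAN 31.6-fold lower, each with an estimated 1 read in its lower group and counting intervals of 5.64 to 1242 and 5.66 to 1246. The median was −0.41 for the chain genes and −1.27 for the core proteins.

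**Figure D3:**
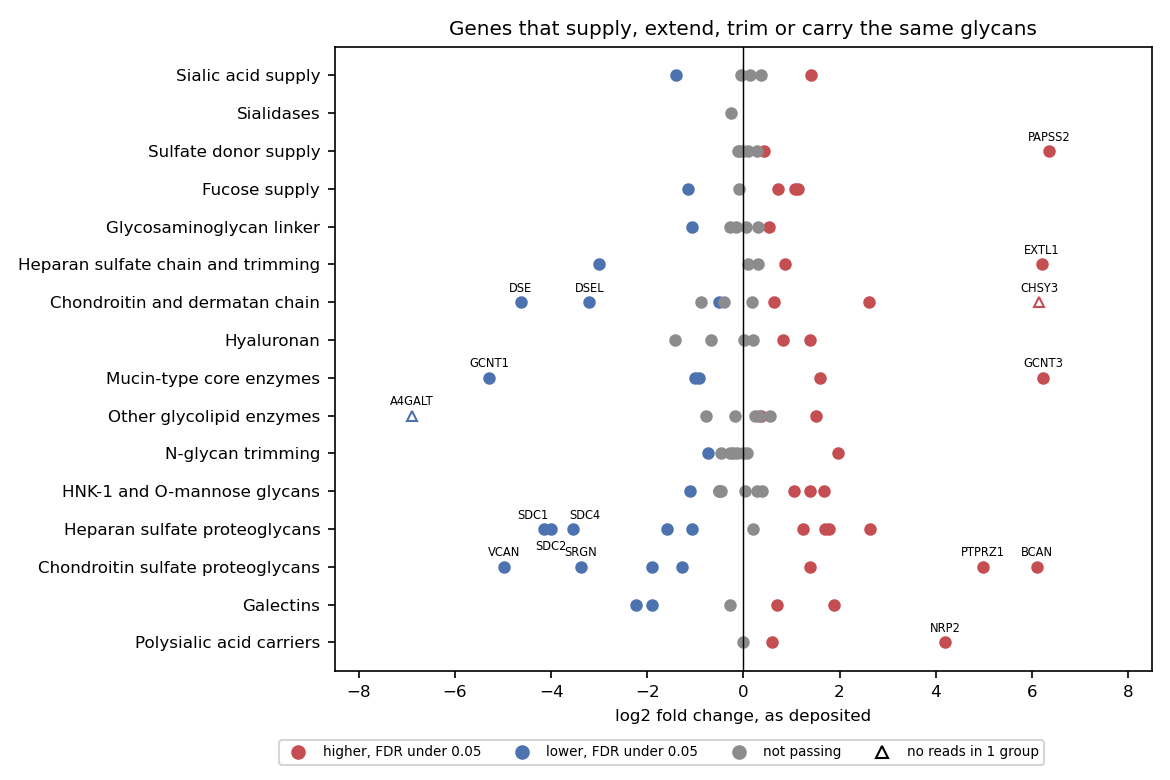
Log2 fold change as deposited (horizontal axis) of each gene of the lists around the glycan enzymes, such as sugar and sulfate donor supply, chain enzymes, proteoglycan carriers and galectins, 1 list to a line. Red circles are higher, blue lower and grey not passing at an edgeR FDR under 0.05, and open triangles had no reads in 1 group. Donor supply genes lie within 1.41 of 0 apart from PAPSS2 at 6.36, whereas proteoglycan carriers spread from −4.98 for VCAN to 6.10 for BCAN.

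Of the genes of sulfate donor supply 28.6% passed the test, and of those of sialic acid supply 40.0%, beside 50.9% of all genes. Of the 7 genes of sulfate donor supply 5 did not pass, and PAPSS2, which makes the sulfate donor PAPS, was 81.9-fold higher at 7.62 CPM (log2 6.36 ± 0.49, edgeR FDR 8.36e-08), with an estimated 3 reads in the lower group and a counting interval of 28.0 to 397. Its isoenzyme PAPSS1 was 1.35-fold higher at 29.7 CPM (FDR 0.0475), a call lost on the spike-in scale, and the sulfate transporter SLC26A2 (0.28) and IMPAD1 (−0.10) did not pass. Of the 5 genes of sialic acid supply, GNE, which makes the precursor, was 2.64-fold lower (log2 −1.40 ± 0.35, FDR 0.0041) and SLC35A1, which carries CMP-sialic acid into the Golgi, was 2.66-fold higher (log2 1.41 ± 0.25, FDR 0.000281). CMAS (0.36) and NANS (0.14), the enzymes that activate and make sialic acid, did not pass. Of the 4 sialidases only NEU1 was among the rows, with a value of −0.26 that did not pass. Of 6 genes for the glycosaminoglycan linker, UGDH, which makes UDP-glucuronic acid, was 2.09-fold lower, FAM20B was 1.44-fold higher, with a log2 value of −0.04 on the spike-in scale, and 4 did not pass, among them the linker enzymes B3GAT3 (0.31) and XYLT2 (−0.29). Centred on the spike-ins, IMPAD1, NANS, NEU1 and XYLT2 passed as lower (log2 −0.67, −0.42, −0.83 and −0.86). The medians of the lists were 0.10 for sulfate donor supply, 0.14 for sialic acid supply, 0.72 for fucose supply and −0.05 for the linker, beside −0.01 over all genes.

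Other surface partners differed by gene. Of 6 hyaluronan genes, the synthase HAS2 (2.62-fold) and TMEM2 (1.78-fold), described as a cell-surface hyaluronidase in mouse, were higher in the authors' deposited table. The other 4 did not pass, among them CEMIP (−0.67) and HAS3 (−1.42). On the spike-in scale TMEM2 lost its call, and CEMIP and HAS3 passed as lower (log2 −1.24 and −1.99). Among 5 galectins and galectin ligands, LGALS1, at 1368 CPM, was 4.69-fold lower (log2 −2.23 ± 0.14, FDR 8.1e-09) and LGALS9 3.76-fold lower. LGALS3 was 3.69-fold higher (log2 1.88 ± 0.19, FDR 1.73e-06) and its ligand LGALS3BP 1.62-fold higher, the latter not passing on the spike-in scale. Of 10 genes for HNK-1 and O-mannose glycans 3 were higher, 2 were lower and 5 did not pass. Of the O-mannose enzymes, LARGE (2.60-fold) and POMGNT1 (2.06-fold) were higher, POMGNT1 without passing on the spike-in scale (FDR 0.052). POMT2 was 1.42-fold lower (FDR 0.0114), and POMT1 (−0.50) did not pass but was called lower on the spike-in scale (log2 −1.07). The substrate of these enzymes, DAG1 (dystroglycan), was 2.15-fold lower. The medians were 0.10 for hyaluronan genes, −0.29 for galectins and 0.17 for HNK-1 and O-mannose genes.

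Some related enzymes were called in the same direction. For example, EXT1 and EXT2 were both lower, as were B4GALT1 and B4GALT2, and ST3GAL4 and ST3GAL6 were both higher. Several other enzymes with the same or a neighbouring activity were called in opposite directions. The opposite pairs were chosen after their values were seen. They were ST6GAL1 and ST6GAL2, GALNT3 and GALNT6, HS6ST2 and HS6ST3, MGAT4A and MGAT4B, and CHST11 with CHST3 and CHST15. In 3 of the pairs one member had no reads in 1 group, so the size of its change is unknown. In each of these pairs both signs held on the spike-in scale. With only the 4 denominator degrees of freedom that 6 libraries in 2 groups leave, MGAT4B was no longer called. ST6GAL2, GALNT6 and HS6ST2, with no reads in 1 group, were tested with 2 fewer than that and also lost their calls. The other calls of glycan enzymes lost with 4 degrees of freedom were those of MGAT5B, GALNT1, GALNT14, GALNT7, CHST6, FUT11, FUT8, B3GALT6, B4GALT2, NDST1 and ST3GAL2. HS3ST3B1, with no reads in 1 group, lost its call with 2 fewer. Of the genes named from the lists around them, GNE, PAPSS1, FAM20B, CHSY3, A4GALT, GLA, LGALS9, CADM1 and POMT2 also lost their calls, with FDRs from 0.0516 to 0.128. For CHSY3 and A4GALT, with no reads in 1 group, this was again with 2 fewer degrees of freedom.

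The size of a change varied with the level of the gene. The 14 genes called at under 2-fold had a median average level of 72.3 CPM, the 25 called at 2-fold to under 16-fold one of 12.1 CPM, and the 6 called at 16-fold or more one of 8.43 CPM. Over all genes the medians were 51.3, 14 and 10.4 CPM. The 6 genes were GALNT3, ST8SIA2, ST6GAL1 and ST8SIA1 on the positive side and HS6ST3 and CHST15 on the negative side, 9.09% of the 66 with reads in both groups beside 5.0% of all genes. The 21 genes that did not pass had a median of 15.7 CPM, and the genes of the whole table that did not pass one of 18.9 CPM.

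**Figure D4:**
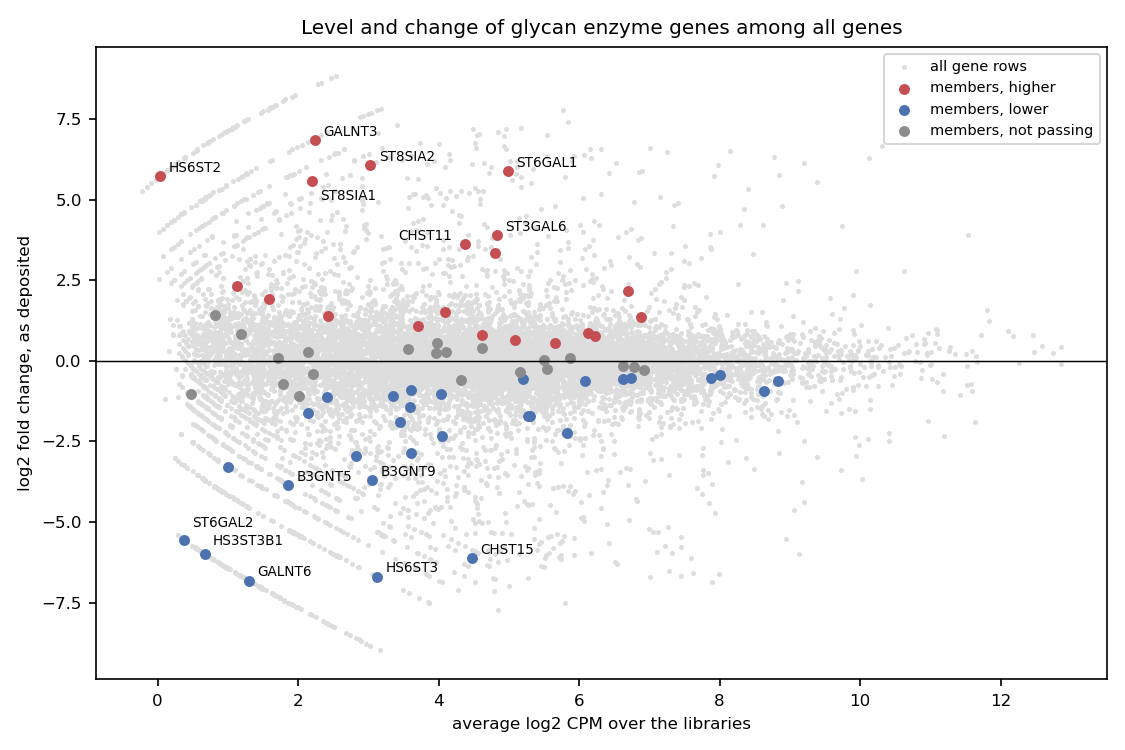
Average level over the libraries (horizontal axis, log2 CPM) against log2 fold change as deposited (vertical axis), with all gene rows in light grey and the 70 glycan enzyme genes in red (higher), blue (lower) and dark grey (not passing) at an edgeR FDR under 0.05. ST6GAL1 and CHST15 combine a change of over 16-fold with averages of 31.7 and 22.2 CPM, whereas NDST1 and B4GALT1, the most abundant, sit at −0.62 and −0.93; HS6ST2, ST6GAL2, HS3ST3B1 and GALNT6 had no reads in 1 group and their height is not a measured fold.

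Promoters are shown for the genes with the largest measured changes, GALNT3, HS6ST3 and CHST15, to set their start regions beside the values above, and for both higher sialyltransferases whose promoter holds the CACGTG E-box that MITF and related factors bind. The latter were chosen after the motif search, and the promoters of the lower genes with the same motif, B3GALT6 and B4GALT2, are not printed. Among the glycan enzyme genes the motif was no more common than in all promoters (7.41% beside 7.43%). Each is the RefSeq promoter of build GRCh38.p14, 300 bases running from 250 before to 50 after the start, written 5′ to 3′ on the gene's strand with any CACGTG in capitals. The regions are chr2:165794198-165794497 (minus strand) for GALNT3, chr13:96089857-96090156 (plus) for HS6ST3, chr10:124093549-124093848 (minus) for CHST15, chr11:126355762-126356061 (plus) for ST3GAL4 and chr1:76074496-76074795 (plus) for ST6GALNAC3.
GALNT3: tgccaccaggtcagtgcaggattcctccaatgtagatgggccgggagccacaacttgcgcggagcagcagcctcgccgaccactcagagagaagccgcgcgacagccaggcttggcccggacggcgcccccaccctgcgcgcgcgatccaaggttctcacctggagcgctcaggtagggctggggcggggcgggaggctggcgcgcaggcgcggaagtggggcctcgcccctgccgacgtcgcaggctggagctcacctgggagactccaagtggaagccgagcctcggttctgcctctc
HS6ST3: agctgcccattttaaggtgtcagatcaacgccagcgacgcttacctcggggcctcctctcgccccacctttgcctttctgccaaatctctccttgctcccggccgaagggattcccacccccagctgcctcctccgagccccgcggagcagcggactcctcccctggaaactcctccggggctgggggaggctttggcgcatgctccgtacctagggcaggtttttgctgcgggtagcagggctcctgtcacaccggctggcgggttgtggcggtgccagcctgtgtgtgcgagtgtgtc
CHST15: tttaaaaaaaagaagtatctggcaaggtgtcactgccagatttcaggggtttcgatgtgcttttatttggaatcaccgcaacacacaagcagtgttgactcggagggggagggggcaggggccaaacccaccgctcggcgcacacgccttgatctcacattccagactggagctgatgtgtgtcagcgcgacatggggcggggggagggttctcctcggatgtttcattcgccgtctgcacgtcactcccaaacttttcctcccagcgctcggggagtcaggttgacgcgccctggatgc
ST3GAL4: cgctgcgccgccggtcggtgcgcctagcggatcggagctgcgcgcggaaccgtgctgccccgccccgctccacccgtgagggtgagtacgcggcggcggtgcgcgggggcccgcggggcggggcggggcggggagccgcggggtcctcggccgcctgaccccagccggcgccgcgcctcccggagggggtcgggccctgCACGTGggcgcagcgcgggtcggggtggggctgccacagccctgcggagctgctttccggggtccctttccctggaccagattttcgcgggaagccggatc
ST6GALNAC3: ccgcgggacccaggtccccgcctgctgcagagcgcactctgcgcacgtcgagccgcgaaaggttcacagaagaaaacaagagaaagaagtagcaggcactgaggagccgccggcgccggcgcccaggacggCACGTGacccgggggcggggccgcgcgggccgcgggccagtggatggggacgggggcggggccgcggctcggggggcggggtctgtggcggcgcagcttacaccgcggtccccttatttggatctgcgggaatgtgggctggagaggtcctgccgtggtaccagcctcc

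A promoter was found for 54 of the 70 genes, and the search read both strands. The E-box CACGTG was in 4 of them (7.41%, beside 7.43% of 27305 promoters of the same length): ST3GAL4 and ST6GALNAC3, which were higher, and B3GALT6 and B4GALT2, which were lower. In ST3GAL4 it begins 51 bases before the start and in ST6GALNAC3 119 bases before it. The M-box TCATGTG, another MITF motif, was in the promoters of B4GALT5 and MGAT1 (3.70%, beside 2.99%). The TCF/LEF core CTTTGAT was in none of the 54 (2.64% of all promoters) and its variant CTTTGAA in none either (4.53% of all). The 54 promoters had a median GC content of 69.3%, beside 58.3% over all promoters, and these windows are a description of letters, not of binding.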

How the data were processed

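Messenger RNA 3′ ends were sequenced in 6 libraries of 2 groups. STAR, edgeR and build hg38 are named, without versions, in the submitters' processing notes; no counting tool, annotation, strand setting or filter on low counts was stated there. The file is the authors' deposited edgeR table of 12617 rows (12558 genes, 59 spike-ins). Per the file headers it holds the authors' log2 fold change, the same fold as a ratio, the average log2 CPM, the F score, the p-value and the FDR. The deposited FDR equals a Benjamini-Hochberg adjustment over all rows (largest relative difference 9.01e-13). The lowest average level was 0.86 CPM, so low genes had been left out. Symbols of 19 rows had turned into dates, and spike-ins made up 4.43% of the summed CPM. No values per library and no depth were at hand, so the authors' test was used in place of a fit to counts, which had been planned if counts were there.

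Computed here with Python 3.11.15, numpy 2.4.6, pandas 2.3.3, scipy 1.17.1 and matplotlib 3.10.9 were the approximate standard error and 95% interval (from F and the row's denominator degrees of freedom, 14.03 in most rows), the level implied in each group, and the alternatives. Genes with no reads in 1 group were those with 12.03 degrees of freedom. In the alternative with 4 degrees of freedom these genes were tested with 2 fewer. Low reads were estimated from the steps of the implied level: 1 read was worth 0.0585 CPM in the group that is lower for higher genes and 0.142 CPM in the other, a ratio of 2.43; counting intervals are exact Poisson and cover counting error only. Methods were tested on simulated data. Gene positions and exon overlaps come from GENCODE 44 on hg38. The genes named were members at an FDR under 0.05 and at least 2-fold, the most abundant of each role, and the 4 smallest p of each list. The other members are also given, as are some further list genes, among them SDC3, POMT1 and POMT2. Members and lists were chosen with earlier results of these data known. A gene of the list of other glycolipid enzymes is not reported here.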

Additional observations from a re-analysis of the deposited data

How the results depend on the processing

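The counts of higher and lower glycan enzyme genes (20 and 29; 14 and 17 at 2-fold or more) stayed within 1.5 times under an FDR of 0.01 (20, 25, 14 and 16), a minimum average log2 CPM of 1 (19, 28, 14 and 17), without genes with no reads in 1 group (19, 26, 14 and 17) and, added after seeing the data, without genes with 0 or 1 read (18, 25, 13 and 16). Bonferroni adjustment left 8 higher and 9 lower, and 8 and 9 at 2-fold or more. With 4 denominator degrees of freedom 17 were lower, 16 higher, and at 2-fold or more 13 were higher and 14 lower. In that setting the 4 genes with no reads in 1 group were tested with 2 fewer, and none of them was called. Centred on the spike-ins 14 were higher and 40 lower, with 10 higher and 28 lower at 2-fold or more, and CHST14 (−0.47), MGAT5B (−0.010) and ST3GAL1 (−0.54) changed sign, as did 7 genes called on neither scale; every log2 value falls by construction. No paired analysis was possible because the deposited table holds no value per library. For the same reason another normalization and leaving out replicates were not run, and no library's depth or weight in a result is known.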
